A study of Mus musculus with 26 samples.

Results

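Chil1, Tarm1 and Upp1 are 3 genes whose transcripts were far more abundant in bone marrow macrophages after 1 day with RANKL, the cytokine that turns these cells into bone-resorbing osteoclasts. They were chosen by their measured day 1 differences, high with RANKL in wild-type cells and low without Cox2, so the day 1 values of these genes are given as a description, with no test. Illumina bead arrays measured Chil1 with the probe ILMN_2609813, Tarm1 with ILMN_2674475 and Upp1 with ILMN_2959291, ILMN_2959292 and ILMN_2959293, together 5 of the 25697 probes with values. They are 3 of 5787 genes that the files name. All 5 passed the filter on dim probes in both experiments, but Tarm1 on day 1 did so through WT cells with RANKL alone, and on day 3 through WT cells and KO cells with PGE2, the groups where it was high. On day 1 ILMN_2959292 and ILMN_2959293 passed through the groups with RANKL. The choice of the genes was made with day 3 results of the same study known as well, so the day 3 tests below are not independent evidence either, although they rest on other arrays.

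The cells came from male CD1 mice, 2 months old, that were wild type (WT) or Cox2 knockout (KO). Cox2, encoded by Ptgs2, makes the precursor of prostaglandin E2 (PGE2). Marrow cells of every group were first expanded in M-CSF, the growth and survival factor of macrophages, at 100 ng/ml. In experiment 1, WT cells had 1 day of M-CSF alone (n = 4 arrays), WT cells had M-CSF and RANKL (n = 3), and KO cells had M-CSF and RANKL (n = 3), with 30 ng/ml of each cytokine where both were given. In experiment 2, all cells had M-CSF and RANKL for 3 days at doses that the labels do not state. The groups were WT (n = 4), WT given 0.1 µM NS398, an inhibitor of Cox2 (n = 4), KO (n = 4) and KO with PGE2 at 1 µM (n = 4). No group had KO cells without RANKL, or day 3 cells without RANKL, and the M-CSF dose of the cells without RANKL is not stated.

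Chil1 (Chi3l1 in the files, also known as BRP-39, the mouse counterpart of human YKL-40) encodes a secreted chitinase-like protein that binds chitin and related sugars but does not cut them. It is made by macrophages, neutrophils and other cells in inflammation. Tarm1 (9930022N03Rik in the files) encodes a receptor on the surface of myeloid cells that signals through the adaptor chain Fcer1g, like its relative Oscar, a co-stimulatory receptor of osteoclasts. Upp1 encodes uridine phosphorylase, which splits the nucleoside uridine into uracil, a base that can be re-used or degraded, and ribose 1-phosphate, a sugar that can enter glycolysis.

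RefSeq places Chil1 on chromosome 1, Tarm1 on chromosome 7 and Upp1 on chromosome 11, and Ptgs2 also lies on chromosome 1. The promoter window of each of the 3 genes is printed here, from 250 bases before to 50 bases after the start of transcription (RefSeq, GRCm38.p6, read 5′ to 3′ on the strand of the gene). Capitals mark matches to 5 motifs searched on both strands, which were the cAMP response element (TGACGTCA), its shorter core TGACG (contained in the full site), AP-1 (TGANTCA), C/EBP (TTGCNNAA) and NF-kappaB. The Chil1 window lies at chr1:134181906-134182205 on the plus strand, the Tarm1 window at chr7:3502575-3502874 on the minus strand, and the first of 3 Upp1 windows at chr11:9117758-9118057 on the plus strand.
Chil1: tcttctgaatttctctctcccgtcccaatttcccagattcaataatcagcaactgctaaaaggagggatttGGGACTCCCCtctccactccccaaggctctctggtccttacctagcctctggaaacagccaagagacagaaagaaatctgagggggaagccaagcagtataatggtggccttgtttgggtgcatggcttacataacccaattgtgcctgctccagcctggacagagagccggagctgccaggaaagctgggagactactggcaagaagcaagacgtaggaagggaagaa
Tarm1: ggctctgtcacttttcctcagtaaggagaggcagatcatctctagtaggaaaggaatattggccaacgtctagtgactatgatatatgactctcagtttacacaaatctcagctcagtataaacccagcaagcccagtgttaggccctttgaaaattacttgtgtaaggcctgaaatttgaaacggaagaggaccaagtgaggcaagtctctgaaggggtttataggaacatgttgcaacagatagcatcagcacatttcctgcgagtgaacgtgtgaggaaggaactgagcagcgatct
Upp1: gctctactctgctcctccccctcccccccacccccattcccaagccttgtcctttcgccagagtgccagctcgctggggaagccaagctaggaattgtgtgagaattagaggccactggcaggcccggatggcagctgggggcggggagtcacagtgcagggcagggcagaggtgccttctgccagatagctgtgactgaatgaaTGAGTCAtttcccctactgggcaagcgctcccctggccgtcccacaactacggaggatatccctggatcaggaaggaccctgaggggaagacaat
The Chil1 window held 1 NF-kappaB match, at position -179 from the start, and 9.55% of 27025 genes have such a match in a window of this length. The Upp1 window held 1 AP-1 match, at position -45, a motif found for 8.97% of genes. The second Upp1 window held that same site, and the third held none of the 5 motifs. None was found in the Tarm1 window either. These matches are letters in a window of 300 bases, and no binding was measured.

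Arrays of one group correlated at 0.972 to 0.995 across probes. Precision is set by the few arrays per group. Replicates are described as biological, but whether each had its own mouse is not stated, so a p-value here covers the spread among these arrays alone. All 9 named macrophage markers were above background in WT cells on day 1, as were 8 of 9 in KO cells. The deposited comparison tables name no probe Ptgs2, so the knocked-out gene was not analysed here. Each experiment has its own intensity distribution, so no test was made between the days.

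Chil1 went from a low signal to one of the brightest on the array within 1 day of RANKL, and hardly any of this was seen in KO cells. With M-CSF alone its intensities in WT cells were 310, 300, 282 and 340, a mean of 308 ± 24.4 (SD, n = 4). With RANKL they were 67997, 66162 and 65204, a mean of 66454 ± 1419 (SD, n = 3). The WT arrays with RANKL stood far apart from those without, and only 23 to 38 of the 25697 probes were brighter than Chil1 on them. The difference was 7.76 on the log2 scale (216-fold), the highest fitted value of 17211 probes. Signals this close to the top of the range can saturate, and whether these did was not tested. If they did, every Chil1 difference from WT cells with RANKL on day 1 is understated and its rank is uncertain.

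In KO cells with RANKL the 3 arrays gave Chil1 intensities of 647, 706 and 616, a mean of 656 ± 45.4 (SD, n = 3). All 3 lay above the 4 arrays with M-CSF alone and far below the WT arrays with RANKL. KO minus WT was -6.66 on the log2 scale, 101-fold lower, a fitted value with the same limit at the bright end. KO cells with RANKL were 1.09 above WT cells with M-CSF alone, or 2.13-fold.

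Tarm1 was seen above background on day 1 in WT cells with RANKL and in no other group. Its intensities with M-CSF alone were 186, 179, 186 and 169, and the group was not above background (detection p = 0.612 in the authors' deposited table). WT arrays with RANKL gave 6556, 6459 and 6876, a mean of 6630 ± 218 (SD, n = 3). KO arrays with RANKL gave 195, 186 and 198, and that group was not above background either (detection p = 0.373 in the authors' deposited table). The WT arrays with RANKL were separate from all others, whereas KO arrays with RANKL and WT arrays with M-CSF alone met at 186. Tarm1 was at least 33.8-fold higher with RANKL than with M-CSF alone in WT cells, and at least 33.2-fold lower in KO than in WT cells with RANKL. Here "at least" marks a fold against a group that was not above background, taken against the higher of the probe's own value and the lowest signal detected in that group. No fold is given between KO cells with RANKL and WT cells with M-CSF alone, since Tarm1 was not above background in either.

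Upp1 was highest in WT cells with RANKL, and in KO cells with RANKL it lay between these and WT cells with M-CSF alone. ILMN_2959291 gave 215, 211, 230 and 233 with M-CSF alone, where it was not above background (detection p = 0.109 in the authors' deposited table). It gave 7951, 9366 and 8956 in WT cells with RANKL, a mean of 8758 ± 728 (SD, n = 3). In KO cells with RANKL it gave 1146, 824 and 986, a mean of 985 ± 161 (SD, n = 3). The 3 groups did not overlap, and the KO arrays lay between the others. Upp1 was at least 39.4-fold higher with RANKL in WT cells, and KO minus WT was -3.16 on the log2 scale, or 8.95-fold lower. KO cells with RANKL were at least 4.40-fold above WT cells with M-CSF alone.

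The other Upp1 probes ran the same way at lower intensities. ILMN_2959292 had means of 191 with M-CSF alone, 2986 in WT and 383 in KO cells with RANKL, and ILMN_2959293 had 181, 2146 and 324. Both were not above background with M-CSF alone. The RANKL difference was at least 14.7-fold and at least 10.9-fold, and KO minus WT was -2.96 and -2.73 on the log2 scale. The 3 probes had the same direction, and the bounds do not allow the sizes of their RANKL differences to be compared. These arrays hold bulk RNA, in which more cells of a type and more RNA per cell cannot be told apart.

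**Figure D1:**
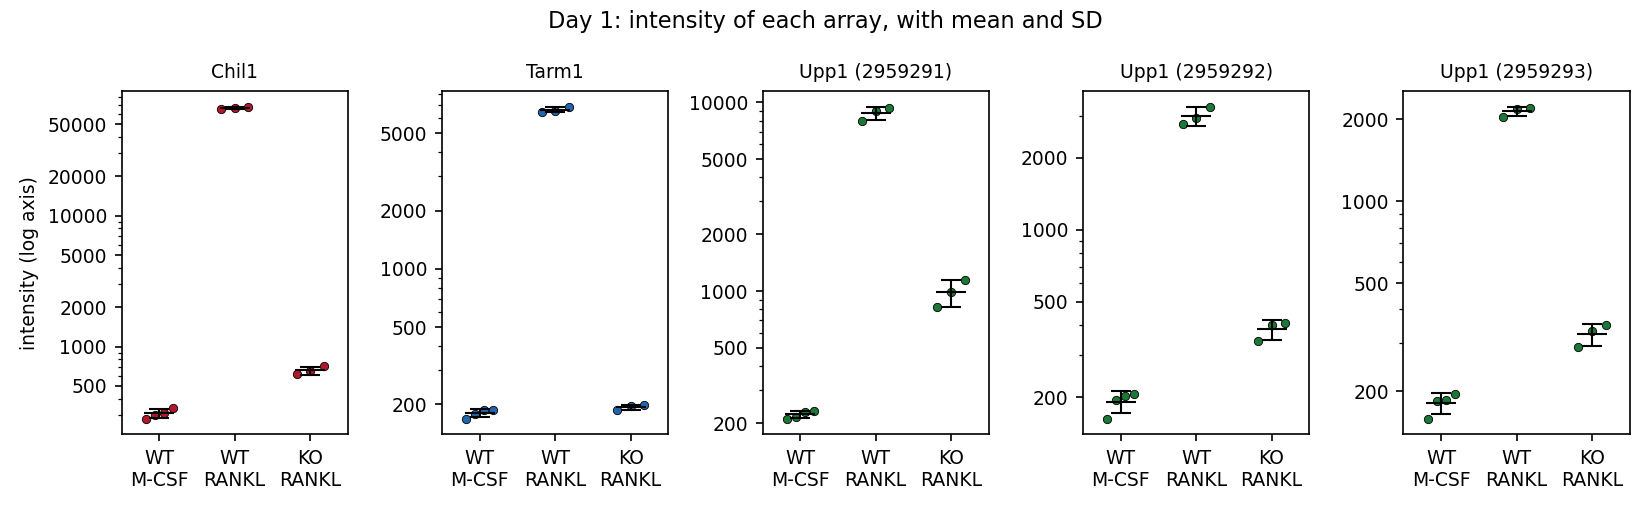
Intensity (log axis) of the 5 probes on each array of day 1, with 1 panel per probe, points for arrays and black bars for the mean and SD. The 3 WT arrays with RANKL sit far above the others in every panel, at 65204 to 67997 for Chil1 and 6459 to 6876 for Tarm1, and the KO arrays sit closest to M-CSF alone for Tarm1.

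All 5 probes were without overlap in the 3 day 1 contrasts, from which nothing is read, since such contrasts chose them. Across the array 18.2% of probes were higher without overlap with RANKL, 19.2% lower in KO than in WT cells, and 11.8% higher in KO cells with RANKL than in WT cells with M-CSF alone. At an adjusted p under 0.05 the shares called were 17.0%, 14.9% and 7.24% in the same order.

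On day 3, with RANKL in every group, all 3 genes were lower in KO cells and in WT cells with NS398 than in WT cells, and higher again in KO cells with PGE2. Chil1 gave 785, 1253, 1061 and 746 in WT cells, a mean of 961 ± 240 (SD, n = 4). With NS398 it gave 154, 163, 161 and 171, and in KO cells 153, 159, 169 and 146. The NS398 and KO arrays lay together below every WT array. KO minus WT was -2.58 ± 0.14 (SE) on the log2 scale, a 6.00-fold lower level (limma adjusted p = 4.77e-09). NS398 minus none was -2.54 ± 0.14 in WT cells, or 5.80-fold lower (limma adjusted p = 6.35e-09).

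With PGE2 the KO cells had Chil1 intensities of 1544, 1319, 1171 and 1528, a mean of 1390 ± 178 (SD, n = 4), far above KO cells without it at 157 ± 9.72. PGE2 minus none was 3.14 ± 0.14 (SE) on the log2 scale, 8.82-fold higher (limma adjusted p = 3.42e-10). The PGE2 arrays overlapped the WT arrays. KO with PGE2 minus WT was 0.56 with a 95% interval of 0.26 to 0.85 and did not pass the test (limma adjusted p = 0.0664). Without WT array 4 it was 0.69 and did pass (limma adjusted p = 0.00779).

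Tarm1 was faint on day 3. It gave 167, 202, 187 and 156 in WT cells, a mean of 178 ± 20.8 (SD, n = 4), and 252, 229, 217 and 298 in KO cells with PGE2, a mean of 249 ± 35.4 (SD, n = 4). With NS398 it gave 133, 119, 134 and 147, and in KO cells 134, 125, 143 and 142, and neither group was above background. The 4 groups kept the order PGE2, WT, and then NS398 with KO, and only the last pair overlapped. KO cells with PGE2 were at least 1.76-fold above KO cells (limma adjusted p = 4.05e-05), and WT cells were at least 1.26-fold above KO cells (limma adjusted p = 0.0378) and at least 1.27-fold above WT cells with NS398 (limma adjusted p = 0.0259). These p-values belong to the fitted log2 differences, 0.87 for PGE2, -0.38 for KO and -0.41 for NS398, which use values not above background. The bounds themselves were not tested. Tarm1 exceeded the filter's level on 0 of 4 KO arrays and 1 of 4 arrays with NS398, so it was tested because the other groups were high. With no filter the adjusted p was 3.82e-05, 0.0429 and 0.0290 in the same order (limma).

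The 2 small Tarm1 falls rest on few arrays. The KO fall missed the threshold without WT array 4 or 2 or any single KO array, with a difference of -0.32 and an adjusted p = 0.137 at the least favourable (limma). The NS398 fall missed it without WT array 4 or 2 or NS398 array 13, 17 or 18, where the least favourable gave -0.35 and an adjusted p = 0.0992 (limma). PGE2 brought Tarm1 above the WT level, by 0.48 ± 0.10 (SE) on the log2 scale (limma adjusted p = 0.0334), and this call was lost without WT array 6, 2 or 3, KO array 7, or PGE2 array 21r or 24r.

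Upp1 (ILMN_2959291) kept a clear signal in every day 3 group. It gave 2522, 1870, 1527 and 1884 in WT cells, a mean of 1951 ± 415 (SD, n = 4). With NS398 it gave 1089, 1250, 1210 and 903, in KO cells 1067, 1337, 1075 and 903, and in KO cells with PGE2 3155, 2931, 1903 and 1824. Every NS398 and KO array lay below every WT array and every PGE2 array, whereas WT and PGE2 arrays overlapped. KO minus WT was -0.82 ± 0.19 (SE) on the log2 scale, or 1.77-fold lower (limma adjusted p = 0.0142), NS398 minus none was -0.80 (adjusted p = 0.0182), and PGE2 minus none in KO cells was 1.13 (adjusted p = 8.60e-04). The KO fall missed the threshold without KO array 8 (-0.73, adjusted p = 0.0556), and the NS398 fall without WT array 6 (-0.67, adjusted p = 0.0578) or NS398 array 16r (-0.70, adjusted p = 0.0603), all in limma.

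The other 2 Upp1 probes fell and rose in the same comparisons, and no single array changed a call of KO, NS398 or PGE2 against its control for them. ILMN_2959292 changed by -0.70, -0.76 and 1.14 on the log2 scale in KO, NS398 and PGE2 (limma adjusted p = 0.00813, 0.00427 and 8.72e-05). ILMN_2959293 changed by -0.97, -0.86 and 1.34 (limma adjusted p = 1.95e-05, 7.01e-05 and 4.07e-07). The 3 Upp1 probes differed by 0.27 at most within 1 of these comparisons, beside 0.43 for KO minus WT on day 1.

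The 4 probes of Chil1 and Upp1, which passed the filter in every day 3 group, were all called lower in KO cells, lower with NS398 and higher with PGE2, without overlap between the groups. The Upp1 probes measure the same gene on the same arrays, so they do not count as separate results. Tarm1 was called in the same directions, but is not counted, given how it passed the filter. Of all 18961 probes tested, 2.94% were called lower in KO, 2.97% lower with NS398 and 6.04% higher with PGE2. Groups did not overlap in those directions for 5.54%, 4.77% and 8.14% of probes. Against WT, only Tarm1 was called higher in KO cells with PGE2, where 0.643% of all probes were. Upp1 differences there were 0.31, 0.44 and 0.37 by probe, and the 95% interval for ILMN_2959291 ran from -0.09 to 0.72. The KO comparison and the NS398 comparison share the WT arrays, and the KO comparison and the PGE2 comparison share the KO arrays.

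**Figure D2:**
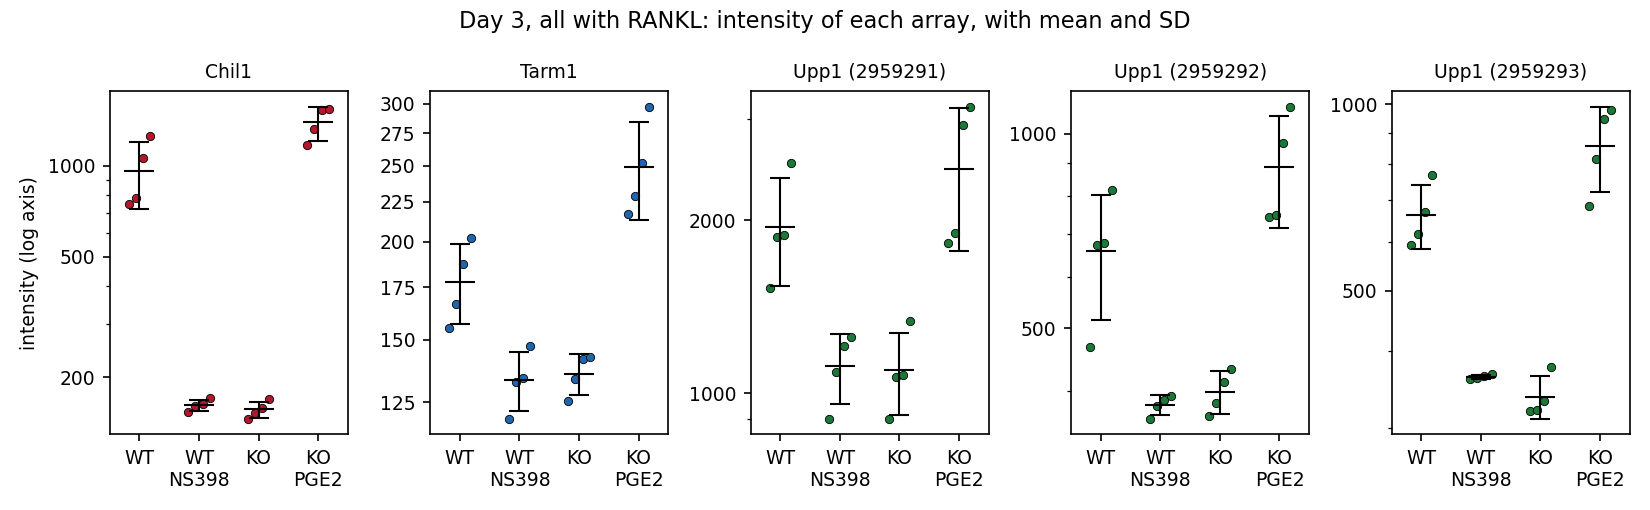
Intensity (log axis) of the 5 probes on each array of day 3, all with RANKL, with points for arrays and black bars for the mean and SD. In every panel the WT arrays with NS398 and the KO arrays lie together below WT, and the KO arrays with PGE2 reach or pass the WT arrays, at 1171 to 1544 against 746 to 1253 for Chil1.

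A direct test of KO cells against WT cells with NS398 asked whether genetic loss and the inhibitor differed, and 0 of 5 probes were called by limma, adjusted or unadjusted, where 0.738% of all probes were called. The difference for Chil1 was -0.05 with a 95% interval of -0.34 to 0.24 on the log2 scale, for Tarm1 0.03 (-0.19 to 0.25) and for Upp1 ILMN_2959291 -0.03 (-0.43 to 0.38). These intervals leave room for differences of up to about those sizes, and Tarm1 was not above background in either group. Chil1 was only just above background in both, with a group detection p of 0.0338 in KO cells and 0.0201 with NS398. For these 2 genes a difference hidden near background could not be seen, so likeness of the knockout and the inhibitor is not read from them. KO cells with PGE2 were above WT cells with NS398 for the 4 probes of Chil1 and Upp1, where 5.74% of all probes were called higher, with Chil1 ahead at 3.09 (limma adjusted p = 3.66e-10).

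Chil1 responded more strongly than Upp1 (ILMN_2959291) on day 3. Its log2 difference was lower than that of Upp1 by 1.76 ± 0.30 (SE) in KO cells and by 1.74 ± 0.31 with NS398, and higher by 2.01 ± 0.22 with PGE2. Each of these 3 had a two-sided p = 0.0286 in an exact permutation test over 4 and 4 arrays, the smallest possible, and an adjusted p = 0.0429 over the 9 comparisons computed. The other 6 involve Tarm1 and are not read, because Tarm1 was not above background in KO cells or with NS398, so that its falls and its rise with PGE2 could not be measured in full. This test was chosen after the values had been seen.

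**Figure D3:**
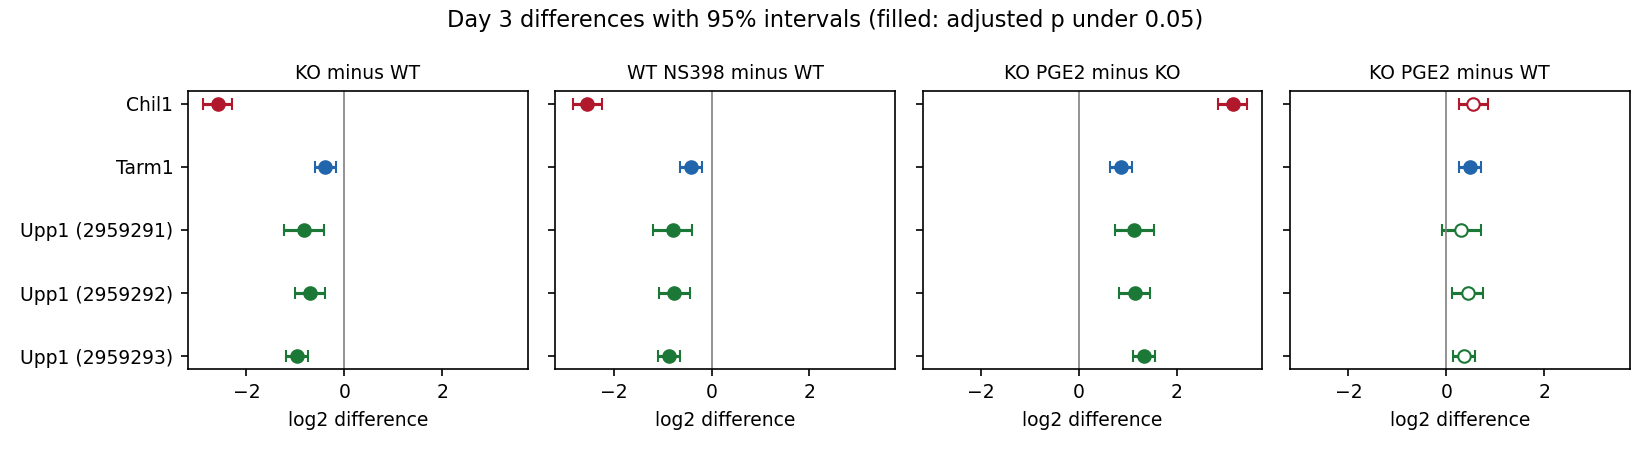
Differences between day 3 groups on the log2 scale for the 5 probes, with 95% intervals and filled points for an adjusted p under 0.05 in limma. Chil1 lies at -2.58, -2.54 and 3.14 for KO, NS398 and PGE2, farther from 0 than the Upp1 probes, the Tarm1 differences in these panels start from or end in a group not above background, and against WT only Tarm1 was called in KO cells with PGE2.

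Upp1 stands at the entrance of pyrimidine salvage, the re-use of nucleosides, and its neighbours in that pathway were mixed. Gene names come from the authors' tables of differing probes, so counts of a list are to be read against the share called among all named probes, which was 75.8% with RANKL and 70.3% in KO on day 1. Of 12 other named genes of pyrimidine salvage and breakdown, 4 rose and 4 fell with RANKL, and 4 rose and 6 fell in KO cells, with list medians of 0.13 and -0.04 beside -0.02 and 0.02 over all probes. Uck2, the kinase that turns uridine into uridine monophosphate and so acts on the same substrate as Upp1, rose by 3.09 ± 0.09 (SE) on the log2 scale with RANKL, and its KO minus WT difference was -1.79 ± 0.10 (limma adjusted p = 1.54e-16 and 5.51e-12). Nt5e, the surface enzyme CD73 that makes nucleosides from nucleotides, rose by 2.49 with RANKL, with a KO minus WT difference of -1.57. Tk1, the thymidine kinase of dividing cells, fell by 2.17 with RANKL.

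On day 3 the pyrimidine list had 3 genes higher and 0 lower in KO cells, 1 higher and 1 lower with NS398, and 2 higher and 4 lower with PGE2, where 16.2%, 15.1% and 33.0% of named probes were called. Uck2 rose 2.29-fold with PGE2 (limma adjusted p = 1.25e-06) and fell by 0.57 on the log2 scale with NS398 (adjusted p = 0.00272), and its difference of -0.35 in KO cells did not pass (adjusted p = 0.0608). Of 15 genes of nucleotide synthesis de novo, 1 rose and 10 fell with RANKL on day 1, and 7 rose and 4 fell in KO cells.

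The ribose 1-phosphate released by Upp1 is turned by Pgm2 into ribose 5-phosphate. Pgm2 rose by 1.14 with RANKL, and its KO minus WT difference on day 1 was -1.25 (limma adjusted p = 3.82e-09 and 3.75e-09), at 4034 ± 49.8 in WT and 1699 ± 207 in KO cells (SD, n = 3 each). Of the 6 named enzymes that handle ribose and pentose phosphates 5 rose and 0 fell with RANKL, and 1 rose and 4 fell in KO cells. Pnp, which splits purine nucleosides as Upp1 splits uridine, rose by 1.21, with a KO minus WT difference of -1.23, while the list of 10 purine salvage genes had 3 higher and 5 lower with RANKL and 6 higher and 3 lower in KO cells. On day 3 Pgm2 and Pnp had KO differences of -0.02 and -0.40, and neither passed the test.

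**Figure D4:**
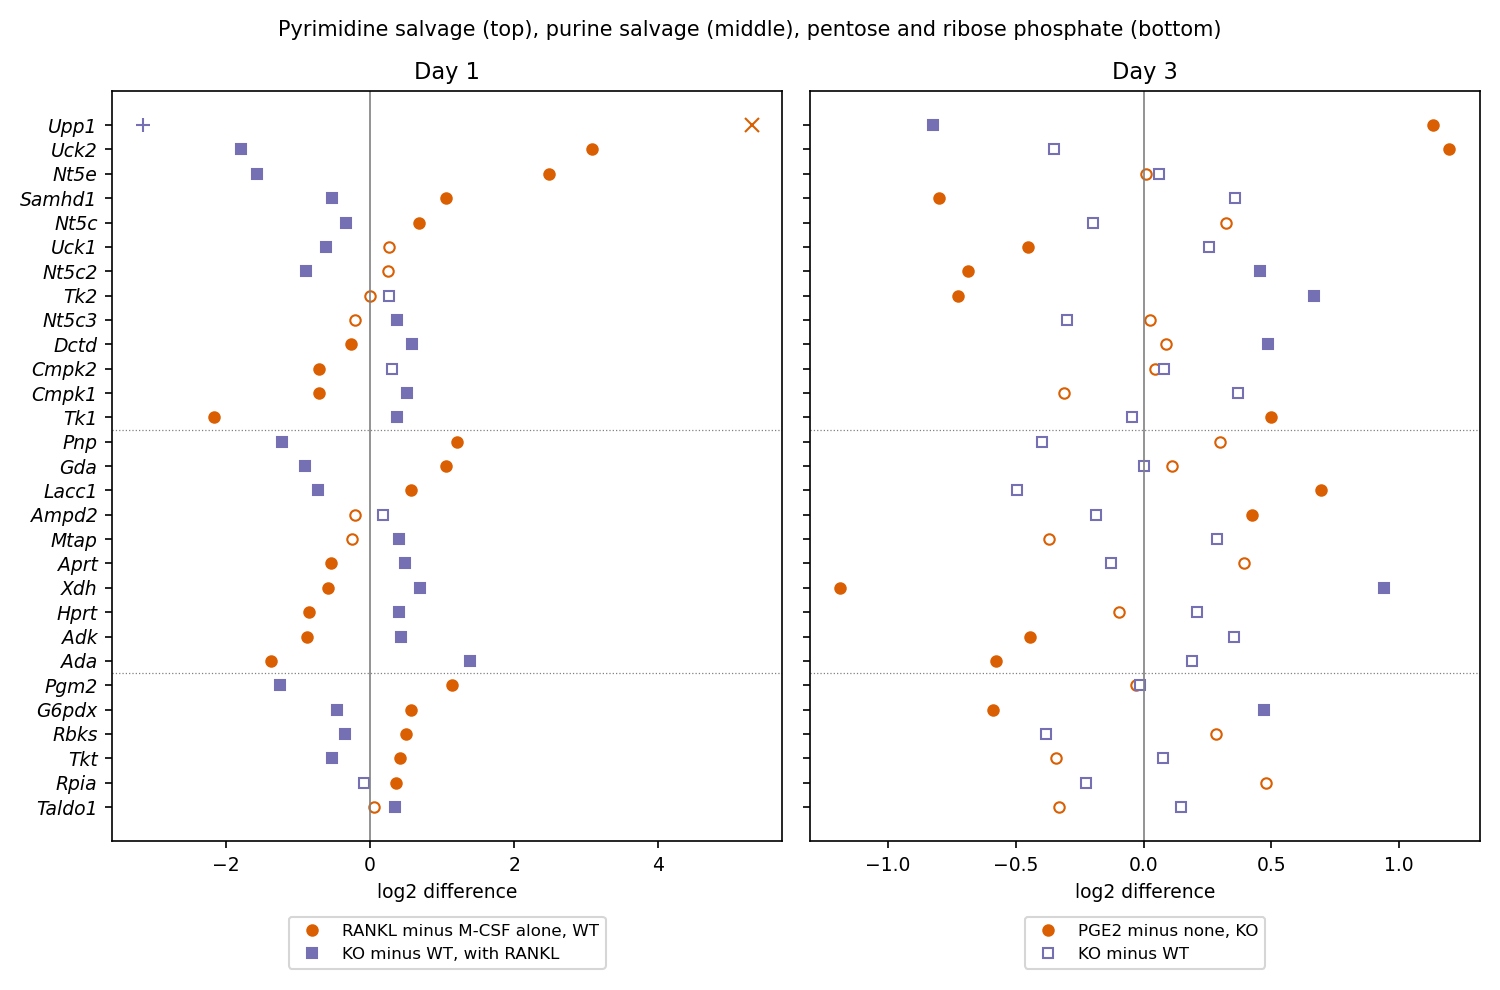
Differences on the log2 scale for genes of pyrimidine salvage, purine salvage and ribose or pentose phosphate handling, on day 1 (left) and day 3 (right), with filled markers for an adjusted p under 0.05 in limma and crosses for Upp1 on day 1, which was not tested. Upp1 and Uck2 lie farthest out on day 1, at 5.30 and 3.09 with RANKL, and the rest of the lists spread to both sides of 0.

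Tarm1 belongs to the activating receptors of myeloid cells that pair with Fcer1g or Tyrobp, and a few of these receptors moved as it did while the list went both ways. Of 19 others with a name, 9 rose and 7 fell with RANKL on day 1, and 8 rose and 9 fell in KO cells. Clec4e (Mincle), which binds mycobacterial glycolipid, was 452 ± 63.1 with M-CSF alone (SD, n = 4), 20842 ± 2495 in WT with RANKL and 406 ± 35.4 in KO cells (SD, n = 3 each). It thus rose by 5.53 with RANKL, and its KO minus WT difference was -5.68 (limma adjusted p = 6.72e-19 and 2.32e-18). Clec4n (Dectin-2), a receptor for fungal mannans, rose by 4.43, with a KO minus WT difference of -2.62, and Trem3 rose by 2.87, with a difference of -2.29.

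On day 3, 4 of these 19 receptors were called higher and 5 lower in KO cells, 5 and 5 with NS398, and 5 and 7 with PGE2. Clec4e fell by 2.04 in KO cells and by 1.83 with NS398 and rose by 2.38 with PGE2 (limma adjusted p = 3.42e-05, 1.06e-04 and 4.82e-06). Another Clec4e probe, ILMN_1216972, had day 3 means of 3022 in WT, 586 with NS398, 527 in KO and 4367 in KO cells with PGE2. That probe is the Clec4e named among the nearest patterns below. Trem1, an amplifier of inflammatory responses, fell by 1.00 in KO cells and rose by 1.53 with PGE2. Cd300ld did otherwise, with KO minus WT differences of 3.64 on day 1 and -2.56 on day 3, and its differences of 0.17 under NS398 and -0.19 with PGE2 did not pass. Oscar, the relative of Tarm1, was not above background with M-CSF alone, rose with RANKL (limma adjusted p = 5.04e-13), had a KO minus WT difference of -0.33 on day 1 and was not called for KO, NS398 or PGE2 on day 3. The inhibitory receptors were also mixed, with 4 of 9 higher and 5 lower under RANKL. Among them Fcgr2b, the inhibitory receptor for IgG, rose by 3.00 with RANKL, was 5.64-fold lower in KO cells on day 1, fell by 1.48 in KO cells on day 3 and rose by 1.68 with PGE2.

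Chil1 has 1 other named member of the chitinase family, Chil3 (Ym1), a secreted protein of activated macrophages. Chil3 rose by 1.12 with RANKL and was higher by 0.64 in KO than in WT cells on day 1, opposite to Chil1 in the KO comparison, and was not called for KO, NS398 or PGE2 on day 3. Of 6 named genes reported as partners or receptors of Chil1, 3 rose and 3 fell with RANKL, and 3 rose and 3 fell in KO cells. Itgb5, an integrin chain, fell by 2.20 with RANKL and was higher by 2.30 in KO cells, and Cd74, the invariant chain of class II molecules, fell by 1.35 and was higher by 2.66.

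The genes with the day 1 pattern nearest to each member, among 5572 named genes over 10 arrays, were found by the root-mean-square difference of log2 values centred on each gene's mean. For Chil1 they were Il1b (0.43), Slpi (0.62) and Saa3 (0.62), for Tarm1 Ptges (0.21), Cstdc4 (0.23) and Clec4e (0.24), and for Upp1 ILMN_2959291 Ass1 (0.32), Clec4n (0.38) and Mmp14 (0.53). The other Upp1 probes had other neighbours, with Slc6a12 (0.16), Ly6e (0.25) and Hsd11b1 (0.26) for ILMN_2959292 and Hsd11b1 (0.16), Slc6a12 (0.17) and Pilrb1 (0.18) for ILMN_2959293. Ptges encodes a synthase that makes PGE2 from the product of Cox2, and Il1b a cytokine of inflammation. On day 3, among 5501 genes over 16 arrays, Chil1 was nearest to Gja1 (0.23), Clec4e (0.30) and Pdpn (0.32), Tarm1 to Fbln2 (0.10), Nop2 (0.12) and Mmp2 (0.13), and Upp1 ILMN_2959291 to Inhba (0.22), Dcn (0.24) and Sipa1l1 (0.24). Tarm1 varied little on day 3, by 0.39 (root-mean-square) about its own mean, and was not above background in KO cells or with NS398. Short distances to it are therefore easily reached by dim probes. The stromal marker Dcn came first for both other Upp1 probes, at 0.20 for ILMN_2959292, before Hcar2 (0.21) and Osbpl3 (0.21), and at 0.17 for ILMN_2959293, before Car13 (0.20) and Fpr1 (0.20). On day 1 the 3 genes were farther from each other than from these, with 1.06 between Chil1 and Tarm1, 1.41 between Chil1 and Upp1, and 0.92 between Tarm1 and Upp1 (ILMN_2959291). On day 3 these distances were 1.11, 1.00 and 0.38. Such distances grow with unlike sizes of change, also where the directions are the same. Possible saturation of Chil1, and Tarm1 and Upp1 not being above background with M-CSF alone, leave those sizes uncertain on day 1.

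Some markers of other cells moved in the directions of the members, and others did not. The summed intensity of 13 named neutrophil and granulocyte precursor genes was 13003 to 13915 with M-CSF alone, 95415 to 96162 in WT with RANKL and 48031 to 64200 in KO cells on day 1. On day 3 it was 3478 to 5041 in WT, 2056 to 2822 with NS398, 2015 to 2224 in KO and 6086 to 10502 in KO cells with PGE2. The list went both ways on day 1, with 7 of 13 genes higher and 5 lower with RANKL, and 8 higher and 5 lower in KO than in WT cells. On day 3, of 12 measured, 0 were called higher and 3 lower in KO cells, 0 higher and 2 lower with NS398, and 6 higher and 0 lower with PGE2, the directions of the members. Beside these and the marker counts below, 34.4% of all named probes were called higher and 41.5% lower with RANKL on day 1. For KO against WT on day 1 the shares were 39.1% higher and 31.2% lower. On day 3 they were 8.72% and 7.51% for KO, 7.61% and 7.46% for NS398, and 14.5% and 18.5% for PGE2. Lcn2, which activated macrophages also express, rose by 4.37 with RANKL and had a KO minus WT difference of -1.91 on day 1, while Ngp was higher by 3.07 in KO cells. On day 1, 9 of the 13 genes were above background in WT cells with RANKL, and Mpo, Elane, Prtn3 and Ltf were not. With M-CSF alone 12 were above background, all but Cebpe, and in KO cells with RANKL all 13 were. On day 3, S100a9, Lcn2, Camp and Ngp were not above background in KO cells or with NS398, and 8 of the 13 genes had no detection p listed.

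The 3 named T and NK cell markers followed the direction of the members on day 1, with 3 of 3 higher with RANKL and 3 of 3 lower in KO cells. They summed to 638 to 678 with M-CSF alone, 979 to 1000 in WT with RANKL and 697 to 729 in KO cells, and Cd3g and Thy1 were above background in WT cells with RANKL alone. Of 12 osteoclast markers, 8 were called higher and 0 lower with RANKL, and 1 higher and 6 lower in KO cells on day 1. They summed to 44021 to 49217 with M-CSF alone, 153286 to 159711 in WT with RANKL and 114212 to 144283 in KO cells. On day 3 only 1 osteoclast marker was called in KO cells and 1 with NS398, both lower, and 3 with PGE2. Of 3 dendritic cell markers, 1 rose and 2 fell with RANKL, and 2 were higher and 1 lower in KO cells on day 1. On day 3, 0 of them were called for KO, NS398 or PGE2. Of 9 macrophage markers, 3 rose and 5 fell with RANKL, and 3 were higher and 4 lower in KO cells on day 1. On day 3, of 8 measured, 3 were higher and 1 lower in KO cells, 0 and 1 with NS398, and 1 and 2 with PGE2.

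The 7 named stromal and osteoblast genes summed to 2427 to 2526 with M-CSF alone, 4255 to 4527 in WT with RANKL and 6768 to 7479 in KO cells on day 1, with 5 called higher and 1 lower in both comparisons. On day 3 they summed to 1652 to 2071 in WT, 1093 to 1147 with NS398, 1310 to 1392 in KO and 2373 to 3073 in KO cells with PGE2, with 0 higher and 3 lower in KO cells, 0 higher and 5 lower with NS398, and 6 higher and 0 lower with PGE2, the directions of the members. Dcn was not above background in KO cells or with NS398, and Col1a1, Col6a1 and Sparc were not above background with NS398 either. Cxcl12 had no detection p listed on day 3. The stromal falls therefore end largely in signals near background. Hdc, the only named mast cell and basophil marker, was called in the directions of the members. It rose by 2.91 with RANKL and had a KO minus WT difference of -2.36 on day 1. On day 3 its differences were -0.60 for KO, -0.59 for NS398 and 0.39 for PGE2. Hdc was not above background with M-CSF alone on day 1, or in KO cells or with NS398 on day 3. The part of other cells in the differences of the members was not tested on day 1 or day 3.

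**Figure D5:**
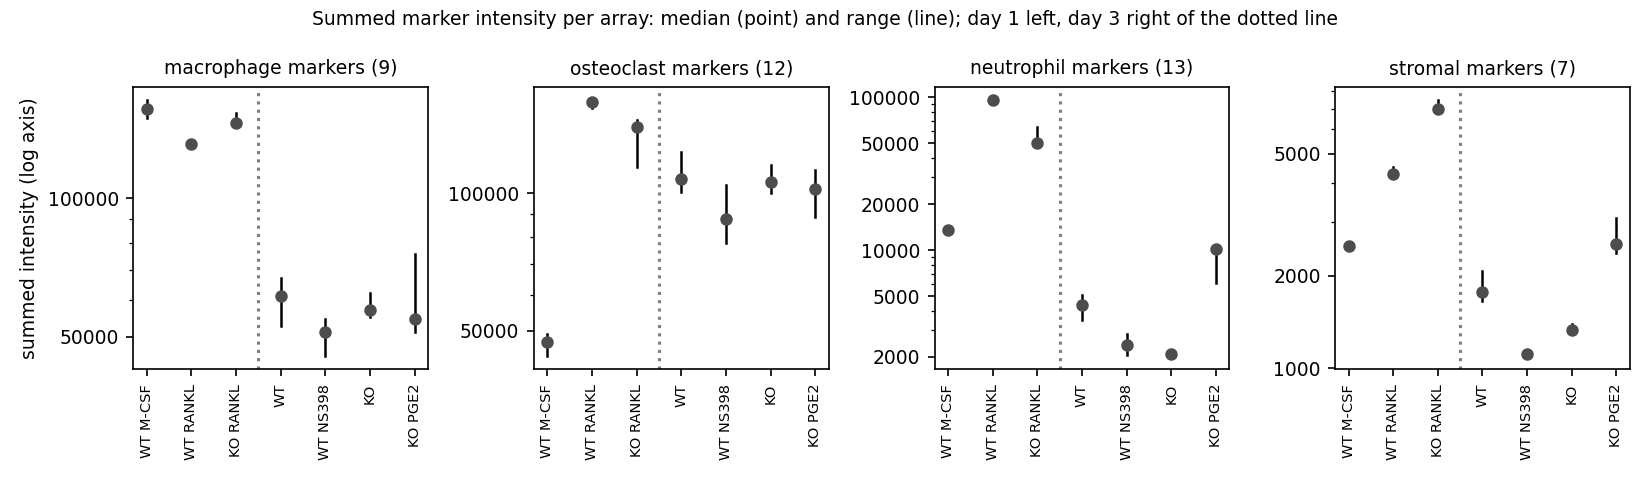
Summed intensity (log axis) of 9 macrophage, 12 osteoclast, 13 neutrophil and 7 stromal markers in each group, day 1 left and day 3 right of the dotted line, with the median as a point and the range over arrays as a line. Neutrophil markers are highest in WT with RANKL on day 1, at 95415 to 96162, and stromal markers are highest in KO cells on day 1, at 6768 to 7479.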

How the data were processed

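Total RNA of 26 cultures was labelled with biotin and hybridised to Illumina bead arrays (10 for day 1, 16 for day 3). The deposited intensity values are linear and come from GenomeStudio, per the submitters' processing notes. Arrays of one experiment share nearly the same distribution, so the authors' values are taken as normalized within it. The authors also deposited 5 tables of listed probes with a group detection p-value, a ratio of group means and a differential score, per the file headers, which name 7244 probes; old symbols were updated through RefSeq.

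The log2 of each deposited intensity was taken (no value was below 32). A probe was kept where it exceeded its array's percentile 40 on 3 or more (day 1) or 4 or more (day 3) arrays. The experiments had separate fits in limma (version 3.58.1, R 4.3.3), with 1 mean per group and eBayes. Two-sided p-values were adjusted by Benjamini-Hochberg over the 17211 or 18961 kept probes, and the code was tested on simulated data. Calls are at an adjusted p under 0.05. A group detection p-value of 0.05 or higher counts as not above background. Exact permutation tests used scipy 1.17.1.

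Members and gene lists were chosen with earlier results of these data known. Named genes were all member probes, at most 4 called members per list and comparison by p-value, and the 3 nearest patterns per probe and experiment, with a few more markers and list members named after their values were seen. A list uses the probe with the highest mean per gene. Alternatives were other filters, cyclic loess, median scaling, 50 added before log2, a variance trend, fits of only 2 groups, a term for titles that end in r, and each array left out. The r, whose meaning is not stated, stood on PGE2 arrays 21r, 23r and 24r, KO array 12r and NS398 array 16r. No WT array had it, so the term overlaps with PGE2 and cannot be fully told apart from it. B cell and erythroid markers had no named probe.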

Additional observations from a re-analysis of the deposited data

How the results depend on the processing

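No paired analysis was possible because the groups of one experiment share no replicate numbers. On day 1 the untested differences kept their direction under every alternative run. With cyclic loess Tarm1 under RANKL was 5.27, and KO minus WT was -6.74 for Chil1 and -5.17 for Tarm1. With 50 added before log2 the RANKL differences were 7.54 (Chil1), 4.86 (Tarm1) and 5.01 (Upp1), KO minus WT was -6.56 (Chil1) and -4.78 (Tarm1), and KO with RANKL minus M-CSF alone was 0.98 (Chil1) and 1.92 (Upp1). On day 3 the calls of Chil1 for KO, NS398 and PGE2 were kept under every alternative, and so were the PGE2 calls of Tarm1 and Upp1. The Tarm1 call for KO was lost with 50 added (-0.29, adjusted p = 0.0510) and that for NS398 with only the 2 groups in the fit (-0.41, adjusted p = 0.0572). For Tarm1 in KO with PGE2 against WT, the call was lost with 2 groups (0.48, adjusted p = 0.172) and with a term for titles that end in r (0.37, adjusted p = 0.148). In that contrast 227 probes were called, against 95 with 2 groups and 370 with the term. With 1 array left out in turn, Tarm1 ranged from -0.45 to -0.32 for KO, -0.48 to -0.35 for NS398 and 0.39 to 0.55 for PGE2 against WT, Upp1 (ILMN_2959291) from -0.93 to -0.69 for KO and -0.91 to -0.67 for NS398, and Chil1 for PGE2 against WT from 0.45 to 0.69. Without PGE2 array 24r, Upp1 ILMN_2959293 in that contrast was 0.47 and passed (adjusted p = 0.0275). Probes called numbered 1656 to 2747 for PGE2 against KO (2561 with all arrays, fewest without KO array 8) and 88 to 160 for KO against NS398 (140 with all arrays, fewest without NS398 array 18). Tarm1 values near background and Chil1 values near the top of the day 1 range limit how well their differences can be sized. The same holds for Chil1 values near background in KO cells and with NS398 on day 3.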
